A study of Mus musculus with 50 samples.

Results

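The 10 genes described here carry glucose into the cell, carry lactate across its membrane, interconvert pyruvate and lactate, and open or close the entry of pyruvate into mitochondria. They were taken by symbol from a table of 37701 genes: the glucose carriers Slc2a1, Slc2a3 and Slc2a4, the monocarboxylate carriers Slc16a1 and Slc16a3, the lactate dehydrogenase subunits Ldha and Ldhb, the pyruvate dehydrogenase kinases Pdk1 and Pdk4, and Pdha1, a subunit of pyruvate dehydrogenase itself. All 10 were found once, and all 10 were among the 16733 genes with a mean of at least 0.5 RPKM (reads per kilobase of gene length, scaled to the reads of the library), the level needed to be tested.

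RNA of 50 mammary gland tumors from female p53R270H/+WAPCre mice was sequenced, with 10 tumors in each of 5 treatment groups. In these mice the Cre recombinase, driven by the WAP promoter of mammary epithelium, switches on 1 mutant allele of the tumor suppressor p53, and the vehicle group shared this genotype. From the age of 8 weeks mice were injected under the skin every other day with vehicle, insulin, glargine, X10 or IGF1 until a tumor had formed, and tumors were taken at 1 cm3, 24 h after the last injection. Glargine is a long-acting insulin analogue, and X10 is one with a raised affinity for the IGF1 receptor, whose own ligand is IGF1 (insulin-like growth factor 1). The vehicle tumors are titled untreated in the labels, and the tumor titled IFG1_132 was read as IGF1; single tumors are named by their titles. The authors chose EMT-like tumors (tumors with traits of an epithelial to mesenchymal transition) with a latency near the median of their group. Doses are not given in the sources used here, nor is it stated that each tumor came from a different mouse, so p-values measure the spread between tumors.

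In normal tissues most cells take up glucose through GLUT1 (Slc2a1), neurons rely on the high-affinity GLUT3 (Slc2a3), and muscle and fat move GLUT4 (Slc2a4) to the membrane when insulin rises. A cell that ferments glucose turns pyruvate into lactate, a reaction that Ldha-rich lactate dehydrogenase favors, and exports it through MCT4 (Slc16a3), whereas MCT1 (Slc16a1) can carry lactate in or out. Pyruvate dehydrogenase kinases phosphorylate Pdha1 and thereby shut pyruvate out of the citric acid cycle. Low oxygen is known to raise Slc2a1, Slc16a3, Ldha and Pdk1 through hypoxia-inducible factor, and Pdk4 is known as a gene of fasting and fat oxidation.

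Library size, recovered from the steps between RPKM values, ranged over 26.6 to 51.9 M reads (median 40.9), and the group medians ran from 35.4 M reads (X10) to 44.0 M reads (vehicle). The sequence sample identifiers in the labels run in treatment order, and the order of library preparation and sequencing is not given in the sources used here. All 50 tumors expressed fibroblast markers (Col1a1 at 1341 RPKM or more). The summed luminal markers Krt8, Krt18, Krt19, Epcam and Cdh1, the epithelial markers expected of mammary gland, ranged from 10.4 to 3758 RPKM, highest in Untreated_174. Summed skeletal muscle markers ranged from 3.05 to 4534 RPKM, and summed adipocyte markers from 18.1 to 629 RPKM. In such bulk samples, fewer cells of a type and less RNA per cell cannot be told apart.

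Levels of the 10 genes differed by orders of magnitude. Ldha was the highest, with a median of 689 RPKM over the 50 tumors and rank 88 among the tested genes by mean. The deposited RPKM depends on the gene length that was used, and this length was short for several genes. For Slc2a3, Slc2a4 and Pdha1 it equalled the median transcript length in the GENCODE M21 annotation of GRCm38. For Slc2a3, for example, it was 574 bases against 3959 bases for the longest coding transcript. It also equalled the median for Slc16a1, which has 1 transcript there (4426 bases). Levels were therefore also set on the longest coding transcript. On this rescaled RPKM, the median was 591 for Ldha, 76.0 for Slc2a1, 49.3 for Pdha1 and 18.5 for Slc16a1. Below these came Ldhb with 11.4, Pdk4 with 4.24, Slc2a3 with 1.70 and Slc2a4 with 0.448 rescaled RPKM. The length was searched in whole bases only, so a length with a fraction came out too long. For Slc16a3 and Pdk1 the search gave 1949 and 1855 bases, beside median transcripts of 974.5 and 927.5 bases. Their rescaled medians, 35.3 and 10.9, are thus probably too high and were left out of the order. For Ldha, Slc2a1, Ldhb and Pdk4 the length found was not the median, so it could not be checked. As deposited, Pdha1 (207 RPKM) stood above Slc2a1 (125 RPKM), so the order of these genes can depend on the length. The ranges of neighbors in the order overlapped on both scales, except those of Ldha and Pdha1 as deposited. Among glucose carriers Slc2a1 exceeded Slc2a3 in each of the 50 tumors on both scales, and among dehydrogenase subunits Ldha exceeded Ldhb in each tumor on both scales. All comparisons between tumors below are within a gene and use the deposited RPKM. The length cancels in ratios of RPKM but not on the log2(RPKM + 0.5) scale of the tests, where it sets the weight of the pseudocount of 0.5 for low genes such as Slc2a4.

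**Figure D1:**
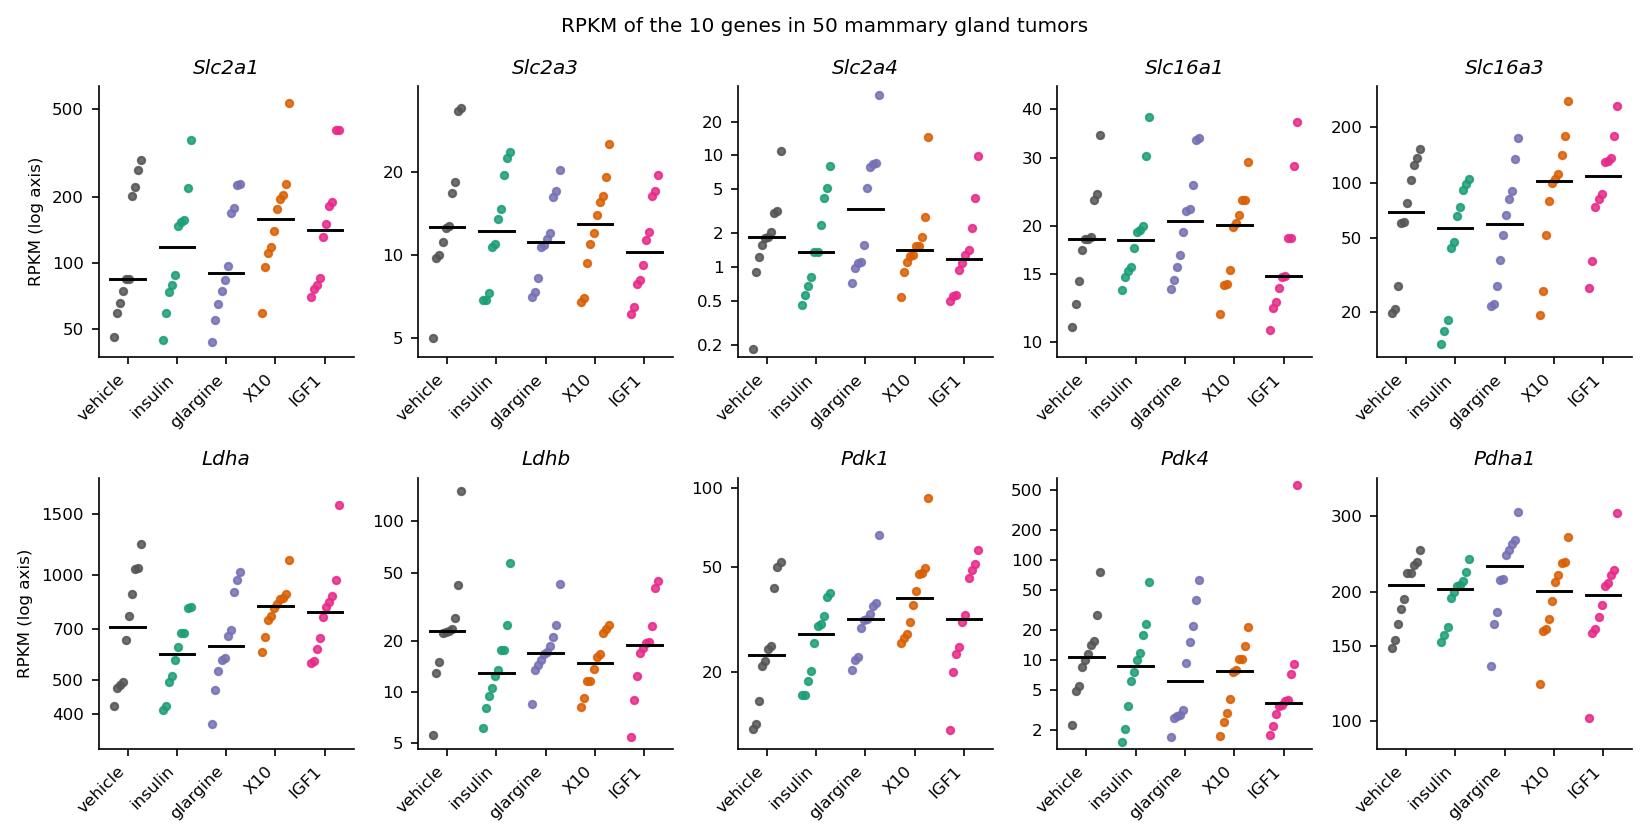
RPKM (log axis) of each of the 10 genes in 50 tumors, 1 point per tumor, colored by treatment group and sorted within a group; the black line is the median of 10 tumors. The groups overlap in every panel, and single tumors stand far above the rest for Pdk4 (IGF1 group, 556 RPKM), Ldhb (vehicle group, 151 RPKM) and Slc2a4 (glargine group, 34.6 RPKM).

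The spread between tumors, measured as the SD of log2(RPKM + 0.5) over 50 tumors, was widest for Pdk4 (1.601) and narrowest for Pdha1 (0.32), against a median of 0.42 over all tested genes. Slc2a4 (1.202), Slc16a3 (1.11), Slc2a1 (0.91) and Ldhb (0.86) were also wide, and these 5 genes stood at percentiles 88.3 to 98.2 of the tested genes by spread, whereas Ldha (0.44) and Slc16a1 (0.46) lay close to the median gene. Treatment group accounted for 3.196% (Pdk4) to 15.1% (Pdk1) of the variance of each gene on the log2 scale, against a median of 9.29% over all tested genes.

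Slc2a1, encoding the basal glucose carrier GLUT1, lies at chr4:119108711-119137983 on the plus strand. In vehicle tumors it ranged from 46.1 to 295 RPKM with a median of 84.6, in insulin tumors from 44.8 to 364 with a median of 117.8, and in glargine tumors from 43.9 to 229 with a median of 90.5. In X10 tumors the range was 59.0 to 532 RPKM with a median of 157.8, and in IGF1 tumors 70.2 to 403 with a median of 141. The highest tumor, X10_100, had 1.32 times the level of the next, IGF1_160. Means were 140 ± 94.9 (vehicle), 139 ± 96.3 (insulin), 122 ± 71.4 (glargine), 185.9 ± 132.7 (X10) and 177 ± 126 RPKM (IGF1; SD, n = 10 each), so that the order of the group means lay well within their spread.

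Slc16a3, encoding the lactate exporter MCT4, lies at chr11:120948480-120960868 on the plus strand and showed the widest range of the lactate carriers. Vehicle tumors had 19.9 to 151 RPKM with a median of 69.1, insulin tumors 13.5 to 104 with a median of 56.9, and glargine tumors 21.6 to 173.97 with a median of 59.6. X10 tumors had 19.3 to 276 RPKM with a median of 102, and IGF1 tumors 26.9 to 258 with a median of 108. The 2 highest tumors thus were X10_95 and IGF1_160, but low tumors were present in all 5 groups.

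Ldha (chr7:46841475-46855627, plus strand), the dehydrogenase subunit of glycolytic tissue, had medians of 709 RPKM in vehicle tumors (422 to 1232), 597 in insulin tumors (412 to 809) and 625.2 in glargine tumors (375 to 1020). The median was 817 RPKM in X10 tumors (604 to 1106) and 787 in IGF1 tumors (561 to 1590). Below the lowest X10 tumor (604 RPKM) lay 4 vehicle, 5 insulin, 5 glargine and 2 IGF1 tumors, but the groups overlapped. Pdk1 (chr2:71873224-71903858, plus strand), a kinase that inactivates pyruvate dehydrogenase, had medians of 23.2 RPKM in vehicle tumors (12.1 to 52.4), 27.7 in insulin tumors (16.2 to 39.9) and 31.7 in glargine tumors (20.2 to 65.9). In X10 tumors the median was 38.3 RPKM (25.6 to 91.3) and in IGF1 tumors 31.8 (12.0 to 57.9). As for Ldha, the lowest X10 tumor lay above the lowest tumor of every other group.

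The promoters of Slc2a1, Slc16a3, Ldha and Pdk1 are shown because these 4 genes varied together between tumors, as described below. The 250 bases before the RefSeq start are given 5′ to 3′ (GRCm38.p6, plus strand), and capitals mark ACGTG or its reverse complement, a core that hypoxia-inducible factor is known to bind.
Slc2a1 (chr4:119108495-119108744): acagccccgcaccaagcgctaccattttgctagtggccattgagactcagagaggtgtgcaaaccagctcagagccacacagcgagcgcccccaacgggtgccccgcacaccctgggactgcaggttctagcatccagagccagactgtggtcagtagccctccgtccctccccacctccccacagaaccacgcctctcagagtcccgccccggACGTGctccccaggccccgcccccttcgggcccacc
Slc16a3 (chr11:120948817-120949066): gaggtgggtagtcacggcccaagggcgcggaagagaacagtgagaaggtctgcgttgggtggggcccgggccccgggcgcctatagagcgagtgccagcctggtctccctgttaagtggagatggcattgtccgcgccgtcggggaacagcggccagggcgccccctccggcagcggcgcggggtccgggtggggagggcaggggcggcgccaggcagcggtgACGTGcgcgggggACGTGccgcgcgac
Ldha (chr7:46845554-46845803): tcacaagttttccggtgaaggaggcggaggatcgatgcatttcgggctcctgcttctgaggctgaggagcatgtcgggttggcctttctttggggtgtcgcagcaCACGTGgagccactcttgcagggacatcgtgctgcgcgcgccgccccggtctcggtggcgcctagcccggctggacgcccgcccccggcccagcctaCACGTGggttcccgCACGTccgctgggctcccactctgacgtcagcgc
Pdk1 (chr2:71872974-71873223): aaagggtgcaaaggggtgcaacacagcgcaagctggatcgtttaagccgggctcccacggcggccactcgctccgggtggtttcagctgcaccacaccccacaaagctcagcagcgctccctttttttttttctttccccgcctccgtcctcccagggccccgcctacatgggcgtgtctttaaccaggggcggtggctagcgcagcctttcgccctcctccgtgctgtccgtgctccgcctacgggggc

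RefSeq windows of 300 bases, from 250 before to 50 after the start, were matched for 8 of the 10 genes, with 10 windows in all. ACGTG, searched on both strands, occurred 1 time in Slc2a1, 2 times in Slc16a3 and 5 times in the first of the 2 windows of Ldha. CACGTG, which holds the core once on each strand, occurred 2 times in that Ldha window and so accounts for 4 of its 5 matches. Slc16a1 had 3 matches, of which 1 CACGTG gave 2. The Pdk1 windows, the second Ldha window and those of Ldhb, Pdk4 and Pdha1 held no ACGTG. Of all 32851 promoter windows of this length, 19.6% held ACGTG at least 1 time and 8.21% at least 2 times, while 7.15% held CACGTG. The related core GCGTG occurred in 32.4% of all windows, at least 2 times in 11.1%. It occurred 4 times in Pdha1, 2 times in the first window of Pdk1, in both Ldha windows and in Slc16a1, 1 time in Slc2a1, Ldhb and Pdk4, and not in Slc16a3 or the second window of Pdk1. The matches describe the sequence, and binding was not measured.

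Slc2a1, Slc16a3, Ldha and Pdk1 were high and low in the same tumors. Over the 50 tumors, Pearson's r of log2(RPKM + 0.5) was 0.82 for Slc2a1 with Ldha, 0.76 for Ldha with Slc16a3, 0.73 for Slc2a1 with Slc16a3 and 0.70 for Slc2a1 with Pdk1. For Pdk1 it was 0.66 with Ldha and 0.66 with Slc16a3. Centred within treatment groups these 6 values were 0.66 to 0.83, so that they were as large among tumors with the same treatment. Of the 50 tumors, 9 were among the 10 highest for at least 3 of the 4 genes: 3 X10, 2 IGF1, 2 glargine and 2 vehicle tumors, and no insulin tumor. X10_100 was among the 10 highest for all 4. These values are a description, since the genes measured in a tumor also share its cell composition and library.

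A score of 12 known hypoxia targets (Car9, Vegfa, Bnip3, Adm, Egln3, Ndrg1, Ankrd37, Kdm3a, P4ha1, P4ha2, Ero1l and Mxi1, the mean of their z-scores, none of them 1 of the 10 genes) was compared with each gene. Pearson's r with this score was 0.87 for Slc2a1 (Spearman's rho 0.85), 0.87 for Pdk1 (0.87), 0.79 for Ldha (0.84) and 0.77 for Slc16a3 (0.80). For each of these 4, the permutation p was 1e-05, the smallest that 100000 resamples can give, or 0.000167 after Benjamini-Hochberg adjustment over 100 relations (10 genes with 10 scores); Spearman's rho gave the same p-values. Without the 2 tumors farthest from the median score r was 0.84, 0.84, 0.77 and 0.75, in the same order. The tumors form a lower and an upper cloud with few scores near 0. Among the 26 tumors with a score above 0, r was 0.72 for Slc2a1, 0.71 for Pdk1, 0.54 for Ldha and 0.45 for Slc16a3. Among the 24 tumors with a score below 0 it was 0.30, 0.74, 0.29 and -0.01, so for Slc16a3 the pooled value rests on the step between both clouds and on the upper one. The other lactate carrier, Slc16a1, had r = 0.07 with the score (adjusted permutation p = 0.827), Ldhb -0.05 (0.845), Pdk4 0.09 (0.793), Slc2a3 0.35 (0.118) and Pdha1 -0.28 (0.207). Centred within treatment groups, Slc2a3 had r = 0.39 (adjusted permutation p = 0.0450) and so passed the threshold, while Slc16a1, Ldhb, Pdk4 and Pdha1 did not. Other scores also passed for 3 of the 4 co-varying genes when centred: proliferation for Slc2a1 (r = -0.42, adjusted permutation p = 0.0291) and Ldha (-0.39, 0.0440), and endothelium (Pecam1, Cdh5, Kdr, Tek and Emcn) for Ldha (-0.39, 0.0454) and Slc16a3 (-0.40, 0.0408). Uncentred, r was -0.39, -0.33, -0.39 and -0.39, in the same order, with adjusted permutation p of 0.0525, 0.143, 0.0525 and 0.0525. By Spearman's rho over the 50 tumors 3 relations passed that did not pass by r: Pdha1 with fibroblasts (rho 0.44, adjusted permutation p = 0.0170; r = 0.29, 0.186), Pdk4 with luminal epithelium (rho 0.41, 0.0392; r = 0.32, 0.148) and Slc16a3 with endothelium (rho -0.40, 0.0392).

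**Figure D2:**
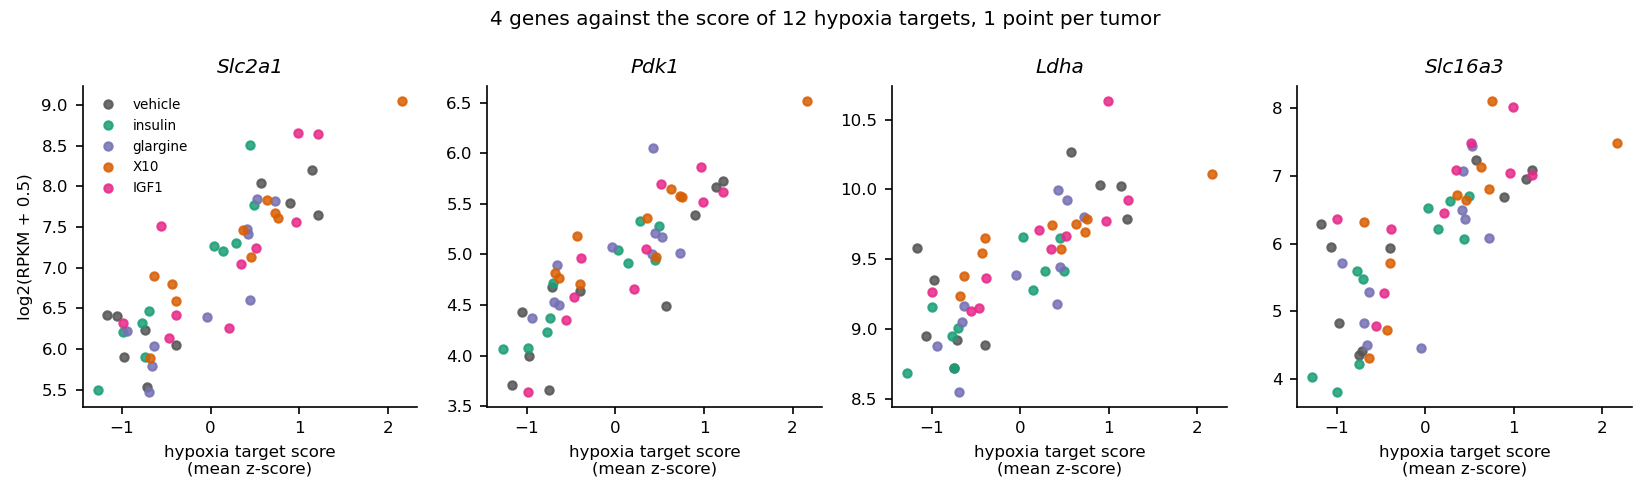
Log2(RPKM + 0.5) of Slc2a1, Pdk1, Ldha and Slc16a3 (y axis) against the score of 12 hypoxia targets (x axis, mean z-score), 1 point per tumor, colored by treatment group. Over the 50 tumors r was 0.77 to 0.87 (0.75 to 0.87 centred within groups), while among the 24 tumors with a score below 0 it was -0.01 for Slc16a3 and 0.29 to 0.74 for the other genes.

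The genes most like each of these 4 over the 50 tumors included members of the hypoxia list and glycolytic enzymes. For Slc2a1 they were Adm, Bnip3 and Ankrd37 (r = 0.85, 0.85 and 0.84), for Pdk1 Bnip3, Ero1l and the processed pseudogene Gm16439 (0.87, 0.80 and 0.78), for Ldha the glycolytic enzymes Tpi1 and Aldoa (0.82 and 0.80) with Ankrd37 (0.81), and for Slc16a3 the antisense gene Gm16754, Mgarp and the glycolytic kinase Pgk1 (0.83, 0.81 and 0.80). Bnip3 is a mitophagy receptor, and Adm encodes the vasodilator adrenomedullin. For the other genes the closest were Slc39a14, Ncs1 and Gm9115 for Slc16a1 (0.61, 0.59 and 0.57), 2810433D01Rik, Gm11627 and Gpnmb for Slc2a3 (0.67, 0.66 and 0.64), and Cpped1, Naa50 and Phka1 for Pdha1 (0.77, 0.75 and 0.73).

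Slc2a4, encoding the insulin-responsive carrier GLUT4 (chr11:69942539-69948188, minus strand), was the lowest of the 10 genes. Vehicle tumors had 0.184 to 11.0 RPKM with a median of 1.85, insulin tumors 0.460 to 7.99 with a median of 1.35, and glargine tumors 0.723 to 34.6 with a median of 3.32. X10 tumors had 0.539 to 14.4 RPKM with a median of 1.42, and IGF1 tumors 0.499 to 9.79 with a median of 1.18. The lowest value corresponds to about 6.04 reads and the median tumor to 43.4 reads, so counting error adds to the spread of the low tumors. The highest tumors of the groups were glargine_64, X10_105, Untreated_186, IGF1_135 and insulin_9.

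These 5 tumors were also the highest of their groups in summed skeletal muscle markers, with 4534 RPKM in glargine_64, 2676 in Untreated_186, 2299 in X10_105, 1803 in insulin_9 and 1695 in IGF1_135, against group medians of 15.8 to 85.03 RPKM. Over the 50 tumors, r of Slc2a4 with the skeletal muscle score (Acta1, Ckm, Myh1, Myh4, Mylpf, Tnnt3 and Pvalb) was 0.78 (Spearman's rho 0.60, adjusted permutation p = 0.000167 for both). With the adipocyte score (Adipoq, Plin1, Lep, Cfd, Fabp4 and Cidec) r was 0.63 (rho 0.69, adjusted permutation p = 0.000167 for both). Retn lay below the level needed to be tested and entered only the summed adipocyte markers. Without the 2 tumors farthest from the median score these were 0.73 and 0.59. The muscle scores fall into 2 clouds: among the 22 tumors with a score above 0 r was 0.90, among the 28 below 0 it was 0.08. Pvalb was at 0 in 3 of the 50 tumors, and the other 6 muscle markers were above 0 in each. The part of muscle and fat tissue in the level of Slc2a4 was not tested. For the adipocyte score r was 0.18 among 21 tumors above 0 and 0.41 among 29 below. With the hypoxia score r was -0.40 (rho -0.38, adjusted permutation p = 0.0456 and 0.0562), -0.42 centred within groups (adjusted permutation p = 0.0291) and -0.36 without the 2 tumors farthest from the median (adjusted permutation p = 0.120). It was -0.30 among the 24 tumors with a hypoxia score below 0 and -0.23 among the 26 above.

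**Figure D3:**
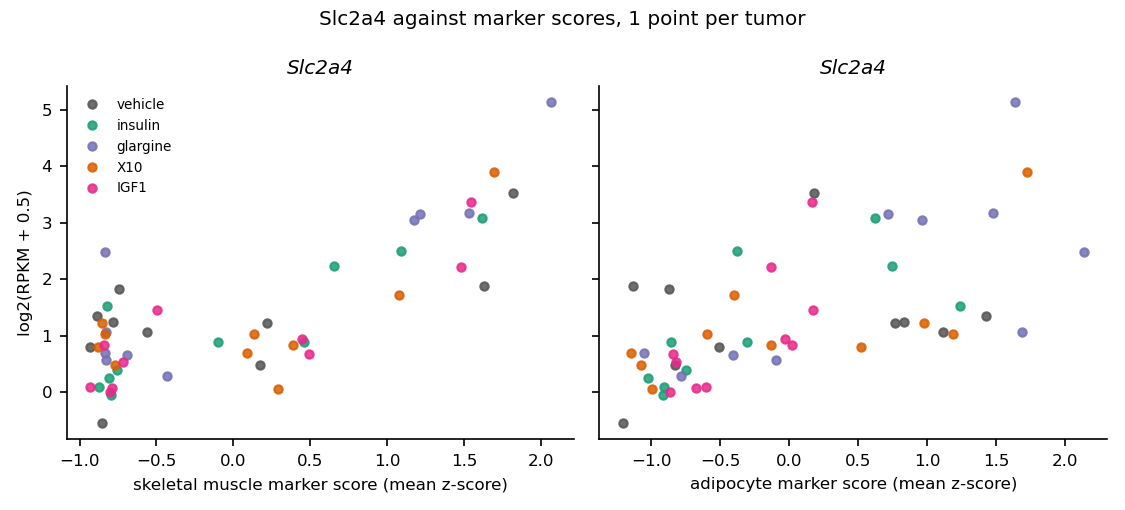
Log2(RPKM + 0.5) of Slc2a4 (y axis) against the skeletal muscle score (left, x axis) and the adipocyte score (right, x axis), both mean z-scores, 1 point per tumor, colored by treatment group. Among tumors with muscle scores above 0 Slc2a4 climbs with the score (r = 0.90, n = 22), and glargine_64 has the highest Slc2a4 level.

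Slc2a3, encoding the high-affinity carrier GLUT3 (chr6:122727809-122801640, minus strand), had group means of 16.3 ± 9.80 (vehicle), 13.6 ± 6.26 (insulin), 12.1 ± 4.38 (glargine), 13.6 ± 5.73 (X10) and 11.4 ± 4.72 RPKM (IGF1; SD, n = 10 each). The 2 highest tumors were both in the vehicle group (34.0 in Untreated_197 and 33.2 in Untreated_161), and so was the lowest (5.04 in Untreated_182). Slc2a3 correlated with the proliferation score (Mki67, Top2a, Ccnb1, Cdk1, Bub1 and Aurka) with r = -0.45 (rho -0.45, adjusted permutation p = 0.0137 and 0.0157). It was -0.41 without the 2 tumors farthest from the median score (adjusted permutation p = 0.0534), -0.38 among the 22 tumors with a score below 0 and -0.24 among the 28 above 0.

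Slc16a1, encoding MCT1 (chr3:104638668-104658462, plus strand), was the steadier of the lactate carriers, at 10.8 to 38.3 RPKM over the 50 tumors. Its group means were 19.3 ± 6.74 (vehicle), 20.5 ± 7.86 (insulin), 21.7 ± 7.24 (glargine), 19.3 ± 5.40 (X10) and 18.2 ± 8.37 RPKM (IGF1; SD, n = 10 each). Its r with Slc16a3 was 0.14. The log2 ratio of Slc16a3 to Slc16a1 accordingly followed Slc16a3, with means of 1.76 ± 0.93 in vehicle, 1.23 ± 1.05 in insulin, 1.44 ± 1.19 in glargine, 2.17 ± 1.32 in X10 and 2.48 ± 0.98 in IGF1 tumors (SD, n = 10 each, deposited RPKM). These ratios were not tested, and their ranges overlapped between groups.

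Ldhb, the dehydrogenase subunit of heart and other oxidative tissues (chr6:142490249-142507957, minus strand), had medians of 22.7 RPKM in vehicle tumors (5.59 to 151), 13.0 in insulin tumors (6.13 to 57.0) and 17.0 in glargine tumors (8.44 to 42.7). It was 14.8 in X10 tumors (8.14 to 24.8) and 18.7 in IGF1 tumors (5.46 to 44.7). The tumor Untreated_161 had 2.65 times the level of the next highest, and without it the vehicle mean was 21.6 ± 10.3 RPKM (SD, n = 9) in place of 34.5 ± 42.1 (n = 10). The genes on both sides of Ldhb were not raised as far as it in this tumor. Golt1b was at 52.1 RPKM against a median of 33.9 in the other 49 tumors, and Kcnj8 at 5.05 against 5.91. By rank among the 50 tumors, Golt1b and Pyroxd1 (10.5 against 5.27) stood at 2, Recql at 4 and Aebp2 (73.2 against 45.4) at 1. On the same side of Ldhb, Plekha5 and Pde3a stood at rank 47. The gene most like Ldhb over the tumors was Gm5514 (r = 0.93), followed by Itih2 and Scube3 (0.63 and 0.62). Gm5514 is a processed pseudogene that RefSeq names Ldhb-ps, and how reads were shared between both genes was not tested, so the level of Ldhb is uncertain to that extent. The log2 ratio of Ldha to Ldhb ranged from 2.79 (Untreated_161) to 7.78 (Untreated_174) on deposited RPKM, both extremes being vehicle tumors.

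Pdha1, the catalytic alpha subunit that the kinases phosphorylate (chrX:160122209-160138413, minus strand), was the steadiest of the 10 genes. Its group means were 200.5 ± 36.1 (vehicle), 196 ± 28.3 (insulin), 223 ± 51.6 (glargine), 198 ± 43.3 (X10) and 195.1 ± 52.96 RPKM (IGF1; SD, n = 10 each). IGF1_160, the tumor with the highest Ldha, had the lowest Pdha1 (102 RPKM). Over the 50 tumors r of Pdha1 was -0.44 with Slc2a1 and -0.34 with Ldha, as a description.

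Pdk4, the kinase of fasting and fat oxidation (chr6:5483351-5496309, minus strand), ranged over 363-fold. Vehicle tumors had 2.26 to 74.9 RPKM with a median of 10.8, insulin tumors 1.53 to 60.3 with a median of 8.77, and glargine tumors 1.72 to 62.5 with a median of 6.20. X10 tumors had 1.76 to 21.5 RPKM with a median of 7.80, and IGF1 tumors 1.77 to 556 with a median of 3.73. In the IGF1 group 9 of the 10 tumors had at most 9.14 RPKM, with a mean of 4.23 ± 2.40 (SD, n = 9), while IGF1_147 reached 7.41 times the level of the next highest tumor of all groups. The mean of all 10 IGF1 tumors, 59.4 ± 174.3 RPKM, is therefore set by 1 tumor.

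In IGF1_147 a run of genes next to Pdk4 on chromosome 6 was high as well. Bet1 (160 RPKM against a median of 10.8 in the other 49 tumors), Casd1 (514 against 22.5), Ppp1r9a (33.4 against 0.987), Pon3 (693 against 43.3), Pon2 (427 against 26.7) and Slc25a13 (217 against 6.05) each had their highest level of the 50 tumors there. Their midpoints lie from -1.41 Mb to 0.64 Mb of that of Pdk4 on the chromosome. The genes lying among them were not uniformly raised: Col1a2 was at 846 RPKM against 1670, and Sgce at 6.71 against 9.55. Outside this stretch, Gng11 (72.3 against 55.6) and Shfm1 (66.6 against 73.3) were near the other tumors. In insulin_18, with the highest Pdk4 of the insulin group, Casd1, Pon3, Pon2, Shfm1, Ccdc132 and Ica1 were second of the 50 tumors. Sgce was the highest there (148 RPKM against 8.25). Across 15 neighboring protein-coding genes, insulin_18 had the highest median of the 50 tumors (0.89 log2 units over the genes' own medians). This value was 0.37 in IGF1_147. Untreated_174 and glargine_64 had more Pdk4 than insulin_18 (74.9 and 62.5 against 60.3 RPKM), with values of -0.47 and 0.28. It was 0.86 in glargine_73, at a Pdk4 level of 3.15 RPKM. Pdk4 correlated with this value over the 50 tumors with r = 0.23. Over all 50 tumors, the 3 genes most like Pdk4 were such neighbors, Slc25a13, Pon2 and Casd1 (r = 0.67, 0.65 and 0.51). Without IGF1_147, in which all 3 had their highest level, r was 0.47, 0.43 and 0.16 (n = 49), so the value for Casd1 rests largely on that tumor. DNA copy number was not measured, and the cause was not tested.

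**Figure D4:**
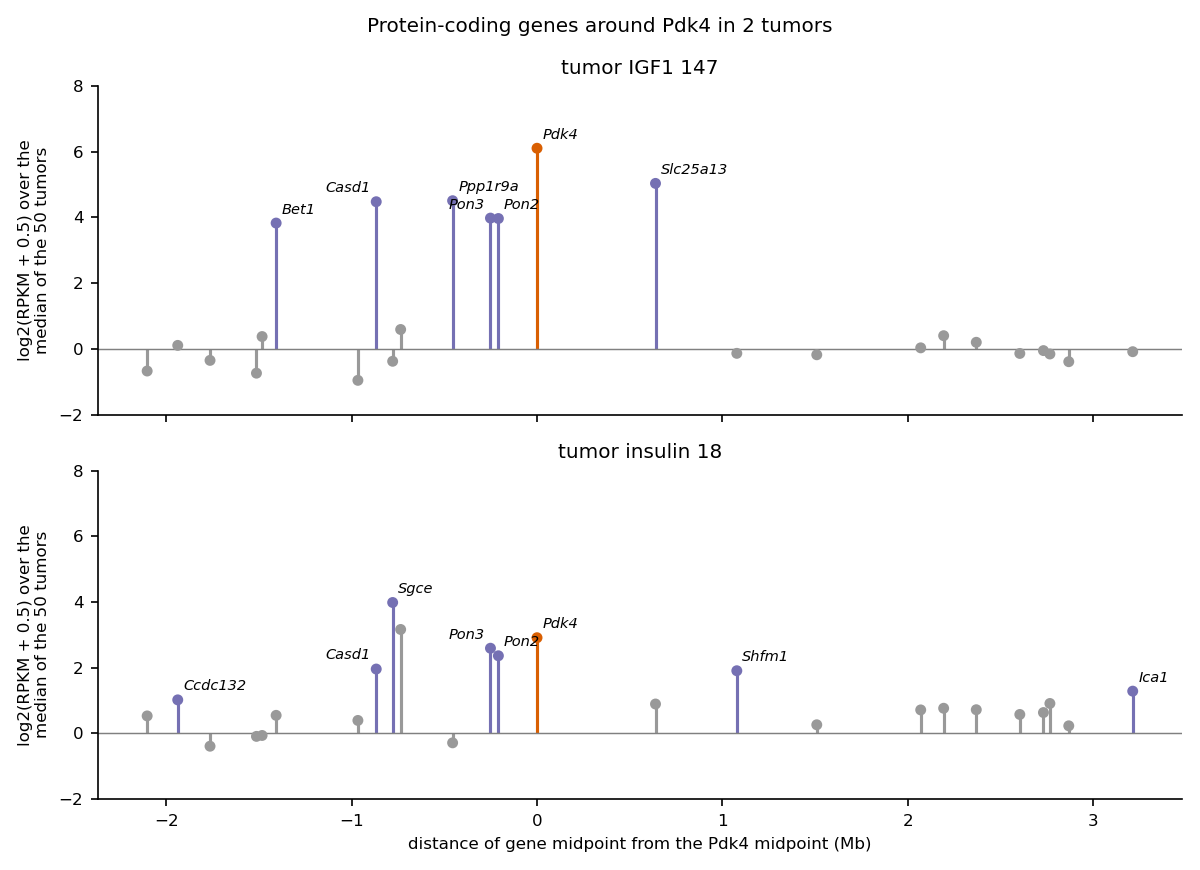
Protein-coding genes within 4 Mb of Pdk4 by the distance of their midpoint (x axis, Mb) and their log2(RPKM + 0.5) over the median of the 50 tumors (y axis), in the tumors IGF1_147 (top) and insulin_18 (bottom). Pdk4 is orange, genes ranked first or second of the 50 tumors are purple and named, others are grey. In IGF1_147, 6 neighbors lie 3.83 to 5.04 above the median beside genes near 0.

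Treatment effects were tested next, with limma on log2(RPKM + 0.5), all 5 groups in 1 fit and Benjamini-Hochberg adjustment over the 16733 tested genes; a gene was called at an adjusted p under 0.05. None of the 10 genes was called in any comparison. Between insulin and vehicle 0 of 10 were called (all tested genes: 0%), with 0 of the 10 at an unadjusted p under 0.05. Between glargine and vehicle the counts were 0 and 0 (all tested genes called: 0%), and between IGF1 and vehicle 0 and 0 (0.00598%). Between X10 and vehicle 0 of 10 were called (0.0657%) and 1 had an unadjusted p under 0.05. For X10 and IGF1 against the other 3 groups, 0 of 10 were called (0.155%) and 3 had an unadjusted p under 0.05. In tests of any difference among the 5 groups (0.102%) and among the 4 ligand groups (0.161%), 0 of 10 were called and 0 had an unadjusted p under 0.05. The share of all tested genes at an unadjusted p under 0.05 in these 7 comparisons was between 6.23% and 13.1%.

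The gene with an unadjusted p under 0.05 in X10 against vehicle was Pdk1, with a log2 fold change of 0.68 (SE 0.26, 95% confidence interval 0.15 to 1.21, unadjusted p = 0.0136, limma adjusted p = 0.335). All 10 X10 tumors were above the vehicle mean on the log2 scale. Without the tumor X10_100 the log2 fold change was 0.54 (adjusted p = 0.420), and with the hypoxia score as a covariate it was 0.39 (adjusted p = 0.214). In the other comparisons with vehicle the smallest p belonged to Ldhb for insulin (log2 fold change -0.70, SE 0.37, limma adjusted p = 0.479), Slc2a4 for glargine (0.74, SE 0.52, limma adjusted p = 0.833) and Slc2a3 for IGF1 (-0.40, SE 0.27, limma adjusted p = 0.745). Without Untreated_161 the value for Ldhb was -0.40 and that for Slc2a3 -0.26 (limma adjusted p = 0.906). That for Slc2a4 was 0.40 without glargine_64, and 0.16 with the adipocyte and skeletal muscle scores as covariates. These comparisons share the 10 vehicle tumors.

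X10 and IGF1, the ligands that act strongly on the IGF1 receptor, were next set against vehicle, insulin and glargine, the grouping the study used for metabolic pathways. In this comparison Slc16a3 had a log2 fold change of 0.71 (SE 0.30, 95% confidence interval 0.10 to 1.32, unadjusted p = 0.0236, limma adjusted p = 0.367) and was above the mean of the other 30 tumors in 15 of 20 tumors. Ldha had 0.31 (SE 0.12, 0.06 to 0.55, unadjusted p = 0.0158, limma adjusted p = 0.326; 16 of 20 tumors) and Pdk1 0.38 (SE 0.17, 0.04 to 0.72, unadjusted p = 0.0296, limma adjusted p = 0.398; 14 of 20). Slc2a1 had 0.44 (SE 0.26, -0.07 to 0.96, limma adjusted p = 0.569; 14 of 20). These 4 had positive values and none passed the adjusted threshold. The remaining 6 had negative values: Pdk4 -0.49 (SE 0.46), Slc2a4 -0.40 (SE 0.33), Ldhb -0.16 (SE 0.24), Slc16a1 -0.13 (SE 0.13), Slc2a3 -0.12 (SE 0.18) and Pdha1 -0.09 (SE 0.09), with limma adjusted p between 0.757 and 0.891. The median over the 10 genes was -0.10, beside -0.02 over all tested genes, of which 43.6% had positive values, and a count of 4 positive of 10 lies near that share. Without Untreated_161 the value of Ldhb was -0.06 and that of Slc2a3 -0.07 (limma adjusted p = 0.957 and 0.938). Without IGF1_147 the value of Pdk4 was -0.84 (limma adjusted p = 0.416), and in IGF1 against vehicle it changed from -0.76 to -1.46 (limma adjusted p = 0.471).

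**Figure D5:**
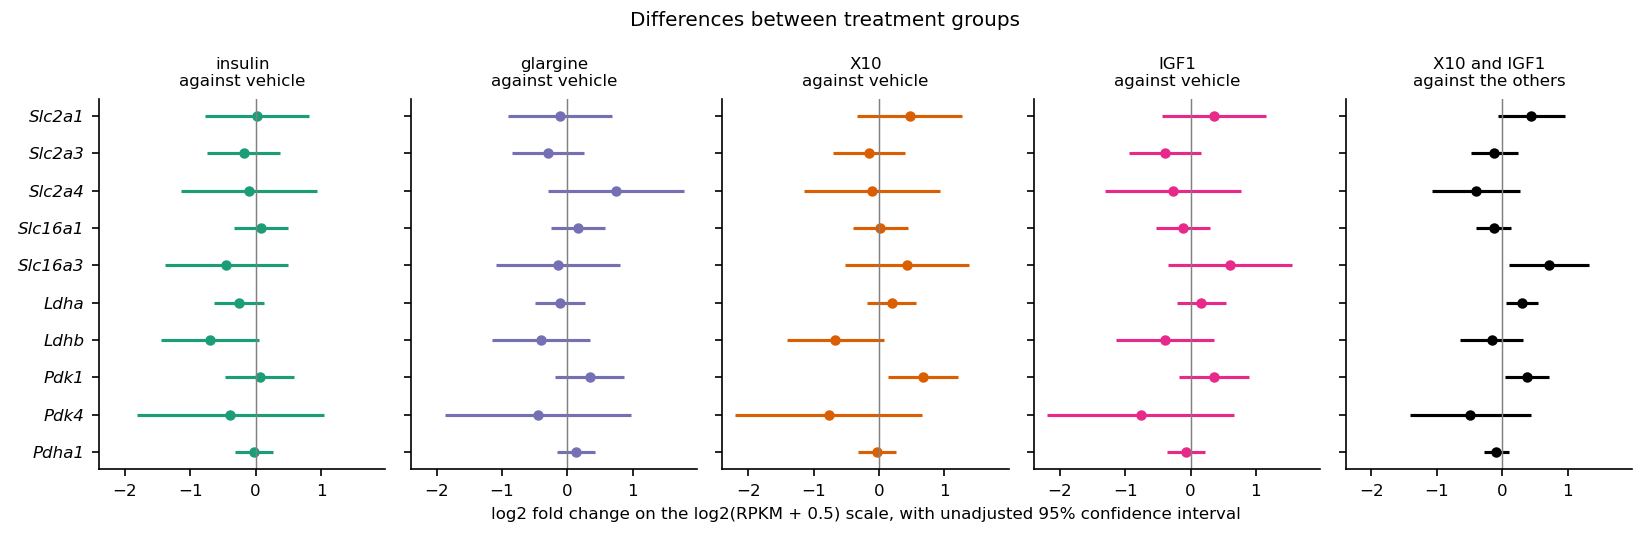
Log2 fold changes of the 10 genes (points, on the log2(RPKM + 0.5) scale) with unadjusted 95% confidence intervals (bars) in each treatment against vehicle and in X10 and IGF1 against the other 3 groups. The intervals of Pdk1 in X10 against vehicle, and of Slc16a3, Ldha and Pdk1 in the last panel, do not reach 0, and none of these differences passed adjustment over 16733 genes.

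The 4 genes with positive values were those with the highest correlation with the hypoxia targets, and the mean of this score, whose difference between groups was not tested, was 0.29 ± 0.87 in X10 and 0.18 ± 0.76 in IGF1 tumors, against -0.12 ± 0.97 in vehicle, -0.31 ± 0.65 in insulin and -0.04 ± 0.63 in glargine tumors (SD, n = 10 each), values that overlap within their spread. Without X10_100 the X10 mean was 0.09, and without IGF1_147 the IGF1 mean was 0.07. With each tumor left out in turn, the mean ranged from -0.27 to -0.01 in vehicle, -0.40 to -0.20 in insulin and -0.13 to 0.06 in glargine tumors. Of the 12 hypoxia targets 11 had positive log2 fold changes in X10 and IGF1 against the others, with a median of 0.32, and 0 were called; P4ha1 (0.35), Ero1l (0.53) and Bnip3 (0.54) had the smallest p (limma adjusted p = 0.290, 0.354 and 0.458). With the hypoxia score as a covariate the log2 fold change of Slc2a1 was 0.04, of Slc16a3 0.30, of Ldha 0.14 and of Pdk1 0.11. The summed hypoxia targets ranged from 390 to 1422 RPKM in vehicle, 340 to 1206 in insulin, 475 to 1350 in glargine, 500 to 3477 in X10 and 492 to 1702 in IGF1 tumors, with no target at 0 in any tumor. The part of oxygen supply in these differences was not tested.

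The rest of the pathway was read from fixed lists in the same comparison. Of 18 glycolytic enzymes 15 had positive log2 fold changes in X10 and IGF1 against the others, with a median of 0.16 and 0 called; the smallest p-values belonged to Pgk1 (0.40, limma adjusted p = 0.226), Pfkl (0.41, 0.414) and Aldoa (0.28, 0.428). Of 7 other monocarboxylate carriers and chaperones 4 had positive values, with a median of 0.12 and 0 called; Bsg, the chaperone that brings MCT1 and MCT4 to the membrane, had 0.20 (limma adjusted p = 0.448). Of 9 other genes of the pyruvate dehydrogenase complex and its regulators 3 had positive values, with a median of -0.07 and 0 called; the kinase Pdk3 had 0.20 (limma adjusted p = 0.399). Among 3 other lactate and pyruvate genes, Ldhd, a dehydrogenase of D-lactate, had -0.39 (limma adjusted p = 0.327) and 0 were called. Of 7 other hexose carriers 1 had a positive value (median -0.04), of 9 genes of GLUT4 storage and traffic 3 (median -0.08), of 4 glucose-sensing factors and targets 1 (median -0.05) and of 9 PPAR and FOXO factors and targets 1 (median -0.05), and 0 were called in each of these 4 lists. Cpt1a, the gate of fatty acids into mitochondria, had -0.26 (limma adjusted p = 0.377). Of the marker lists of other cells, positive values were held by 0 of 6 adipocyte (median -0.48), 0 of 5 luminal (-0.45), 1 of 3 basal (-0.17), 1 of 5 fibroblast (-0.27), 0 of 5 red blood cell (-0.17), 1 of 6 leukocyte (-0.06), 2 of 5 endothelial (-0.05) and 3 of 7 skeletal muscle markers (-0.02), and by 4 of 6 proliferation genes (0.09). None of these was called, and their part in the values of the 10 genes was not tested.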

How the data were processed

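RNA of 50 mouse mammary tumors was poly-A selected and sequenced on an Ion Proton instrument. Per the labels, the submitters' processing notes name TopHat2 2.0.10, Bowtie2, HTSeq 0.6.1 and the genome build GRCm38. The deposited table holds RPKM values that the authors made from reads per gene, with 1 column for each tumor; its 37701 genes were used as given. RPKM divides by a gene length, so an error in that length shifts levels between genes and, through the pseudocount, the fitted fold changes of low genes. Groups were taken from the labels.

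Library size was recovered from the smallest steps between RPKM values of 1500 genes; at least 92.9% of low values then fell on whole reads, and in simulated libraries 49 were within 1% of the truth (largest error 4.76%). Genes with a mean of at least 0.5 RPKM (16733) were tested on log2(RPKM + 0.5) with limma 3.58.1 (R 4.3.3), with an intensity trend, all 5 groups in 1 fit and Benjamini-Hochberg adjustment (threshold 0.05). Fold changes on this scale understate changes of low genes. On simulated data for X10 against vehicle (16733 genes), 83 of 100 genes with a simulated log2 difference of 1 and 95 of 100 with 2 were found, with 9 false calls. The changed genes were drawn from all tested genes (median SD 0.42). Pdk4, Slc2a4, Slc16a3, Slc2a1 and Ldhb spread more widely (SD 0.86 to 1.60), so these shares do not apply to them. Differences under 1 were not simulated. List scores were means of z-scores, compared with each gene by two-sided permutation tests (100000 resamples; scipy 1.17.1). Values in the text were named by rule: all 10 genes, in each list up to 3 genes with the smallest p, the 3 genes most like each of the 10 (those for Slc2a4 are not reported here), and neighbors on the chromosome of genes with a tumor far above the rest. The 10 genes and the lists were chosen with earlier results of these data known. Gene positions came from GENCODE M21 and promoters from RefSeq (GRCm38.p6). Alternatives were other pseudocounts, filters, scalings, fits and covariates, and leaving out single tumors.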

Additional observations from a re-analysis of the deposited data

Results flagged for a closer look

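In 5 of 50 sets of 10 tumors (10 genes in 5 groups) the highest tumor stood apart from its group on the log2(RPKM + 0.5) scale, with a gap to the next that took more than 0.466 of the whole range (Dixon's 95% limit for 10 values). On the RPKM scale, tried after seeing the data, 14 sets passed this limit, among them Ldhb in vehicle tumors (Untreated_161, 0.746) and Slc2a4 in glargine tumors (glargine_64, 0.769). For normally distributed values, chance alone flags about 1 in 20 such sets. Values on the RPKM scale are skewed toward high levels, so this share does not apply to the 14 sets. On the log2 scale the gap took 0.737 of the range for Pdk4 in IGF1 tumors (IGF1_147), 0.568 for Slc2a4 in X10 tumors (X10_105) and 0.501 for Pdk1 in glargine tumors (glargine_73). It took 0.480 for Pdk1 in X10 tumors (X10_100) and 0.474 for Ldha in IGF1 tumors (IGF1_160). In IGF1_160 the 67 protein-coding genes near Ldha had their highest median of the 50 tumors. It lay 0.66 log2 units over the genes' own medians, with 57 of 67 above. In X10_95, highest in Slc16a3, the 69 genes near Slc16a3 also had their highest median (0.59, 58 above). In X10_100, highest in Slc2a1 and Pdk1, the genes near them had -0.47 and -0.08. The cause was not tested. X10_105 was also the highest X10 tumor in summed skeletal muscle markers (2299 RPKM), and X10_100 the highest of all 50 in summed hypoxia targets (3477 RPKM). Without X10_100 the mean of Pdk1 in X10 tumors was 36.9 ± 9.61 RPKM (SD, n = 9), and without IGF1_160 the mean of Ldha in IGF1 tumors was 740.5 ± 146 RPKM (SD, n = 9).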

How the results depend on the processing

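No paired analysis was possible because the tumor numbers in the labels are not shared between groups. None of the 10 genes was called under any alternative that tested it (Slc2a4 falls below a mean of 5 RPKM and was not tested there), and none of their log2 fold changes changed sign in X10 and IGF1 against the others, nor did the one with the smallest p in each comparison with vehicle. The alternatives were not tabulated for the genes of the lists. In X10 and IGF1 against the others the log2 fold change ranged from 0.30 to 0.78 for Slc16a3, 0.14 to 0.35 for Ldha, 0.11 to 0.42 for Pdk1 and 0.04 to 0.53 for Slc2a1, with the lowest value under the hypoxia score as a covariate, and limma adjusted p from 0.188 (Ldha) to 0.953 (Slc2a1). For the genes with negative values in X10 and IGF1 against the others, the ranges were -0.84 to -0.30 (Pdk4) and -0.47 to -0.15 (Slc2a4). They were -0.23 to -0.06 for Ldhb, -0.24 to -0.07 for Slc2a3, -0.15 to -0.09 for Slc16a1 and -0.12 to -0.04 for Pdha1. Pdk1 in X10 against vehicle ranged from 0.39 to 0.79 (limma adjusted p 0.214 to 0.519).

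The counts of all genes called by limma moved more, and the cause was not tested. For insulin against vehicle the count of 0 (1865 at an unadjusted p under 0.05) became 2 after upper quartile scaling or quantile normalization, with a mean of at least 5 RPKM, and with the hypoxia score or library size as a covariate, and was 0 to 2 when single tumors were left out (2 without Untreated_161). For X10 against vehicle 11 became 24 with no filter, 4 with only the groups compared and 1 with library size as a covariate. For IGF1 against vehicle 1 became 0 with a mean of at least 5, only the groups compared, the luminal score as a covariate, or without IFG1_132. For X10 and IGF1 against the others 26 became 11 with no filter, 17 with a mean of at least 5, 51 with upper quartile scaling, 46 with the luminal score, 13 with the hypoxia score, 14 with library size and 82 without IFG1_132, and was 18 to 60 when other single tumors were left out (60 without X10_100). For any difference among the 5 groups 17 became 0 with no filter, with the hypoxia score or with library size, 6 with quantile normalization and 27 without IFG1_132, and was 5 to 21 with single tumors left out (5 without Untreated_161, 8 without glargine_64). For the 4 ligand groups 27 became 0 with no filter, 4 with quantile normalization, 13 with the hypoxia score and 11 with library size, was 32 without IFG1_132, and was 14 to 29 with other single tumors left out (14 without glargine_64). Of 100 relations with scores 8 had an adjusted p under 0.05, and 13 when centred within groups. Library size as a covariate and leaving out IGF1_147, Untreated_161, glargine_64 and X10_100 were chosen after seeing the data, as was leaving out IGF1_147 in the correlations of Pdk4 and each tumor in turn in the mean hypoxia scores.

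Depth limits Slc2a4 most, with about 6.04 reads in the lowest tumor. A p above the threshold does not show that groups were alike.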
